A study of Homo sapiens with 6 samples.

Results

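Histone and DNA methylation is set by writers, which place methyl groups on histone lysines or on cytosine, by subunits and partners that these enzymes need, and by erasers, which take the groups off again. The 41 genes described here are a named list of such factors: 21 writers, 8 subunits or partners and 12 erasers. The list names genes by their function and uses no threshold on a value, though it was drawn up with earlier results of these data known, and it holds 41 of the 60612 genes in the deposited table. Each gene was listed under 1 mark, though some act on more than 1. Listed this way, 15 fall under lysine 4 of histone H3 (H3K4), 6 under H3K27, 8 under H3K9, 4 under H3K36, 1 under H3K79 and 7 under DNA. RNA was sequenced from U87, an established human glioblastoma cell line, in 3 control libraries (NC) of cells carrying a scramble shRNA and in 3 libraries of cells carrying an shRNA against PRMT6 (shPRMT6). Both groups carried a lentiviral shRNA and are said to be independent replicates, but which of the study's PRMT6 shRNAs was sequenced is not named, and all 6 libraries come from 1 cell line.

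PRMT6 is an arginine methyltransferase that places an asymmetric dimethyl mark on arginine 2 of histone H3, next to lysine 4. That arginine mark is known to oppose binding of the KMT2 complexes, the writers of H3K4 methylation, which is found at active promoters and enhancers. H3K27 methylation by Polycomb repressive complex 2 (PRC2) and H3K9 methylation accompany silent genes, H3K36 and H3K79 methylation accompany transcribed gene bodies, and DNA methylation is copied after replication by DNMT1 with UHRF1. Several of these enzymes, EZH2, DNMT1 and UHRF1 among them, are known to be made mostly in dividing cells.

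The count totals of the libraries lay between 56388161 and 75887696, and NC replicate 2 was the deepest. PRMT6 itself had 522, 606 and 449 counts in the 3 NC libraries and 227, 282 and 355 in the 3 shPRMT6 libraries. Its level was 8.17 ± 1.08 CPM (counts relative to library size, after TMM scaling) in NC and 4.46 ± 0.844 CPM in shPRMT6 (SD, n = 3 each), so 54.7% of the NC level was left. Its log2 fold change was -0.87 (SE 0.187, adjusted p = 0.0225, edgeR quasi-likelihood test with Benjamini-Hochberg adjustment over 18106 genes). The call on PRMT6 was lost without NC replicate 1 (log2 fold change -0.77), without shPRMT6 replicate 1 (-0.73) and without shPRMT6 replicate 2 (-0.89). Of the glioma markers, VIM (7090 to 8427 CPM), CD44 (455 to 651 CPM) and NES (38.3 to 45.7 CPM) were present, while GFAP and SOX2 were under 1 CPM and AQP4 had no count in any library. Of 10 markers of other cell types, the leukocyte marker PTPRC was at or near 0 (at most 0.065 CPM), while CD68, a macrophage marker, had 242, 256 and 148 CPM in NC and 316, 149 and 144 CPM in shPRMT6, with overlapping groups. The summed level of the 10 markers was 167 to 277 CPM in NC and 161 to 333 CPM in shPRMT6. Of the 8 that were tested, KRT8 was lower in shPRMT6 (6.35 ± 1.00 against 2.71 ± 0.902 CPM), and the part of these markers in the results was not tested.

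All 41 genes passed the filter on low counts, and 10 of them were lower in shPRMT6 past an adjusted p of 0.05, while 0 were higher and 31 did not pass. Over all genes tested, 9.06% were lower and 9.51% were higher. The 10 were KMT2D, WDR5, KDM1A, EZH2, KDM6B, EHMT2, NSD2, DNMT1, DNMT3B and UHRF1. At an unadjusted p under 0.05, 15 of the 41 were lower and 0 higher, beside 16.3% of all genes in each direction. DESeq2 called 15 lower and 0 higher, beside 15.7% and 16.3% of all genes with an adjusted p. The median log2 fold change of the 41 genes was -0.20, and 32 of them were negative, beside a median of -0.01 and 9250 negative values among the 18106 genes tested. In 18 of the 41 genes every shPRMT6 library lay below every NC library, and in 2, KDM5C and KDM4A, every shPRMT6 library lay above; over all genes tested these shares were 19.9% and 20.3%. Under the threshold of the study's methods (p under 0.05 and a log2 fold change beyond 1), EZH2 alone of the 41 was lower, beside 2.63% of all genes tested. Fewer cells that express a gene and less of its RNA per cell cannot be told apart in these bulk libraries.

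By role, the counts ran as follows, beside 9.06% lower and 9.51% higher over all genes tested. Of the 21 writers, 6 were lower and 20 had a negative log2 fold change, with a median of -0.27. Of the 8 subunits and partners, 2 were lower (median -0.05), and of the 12 erasers, 2 were lower and 5 had a positive log2 fold change (median -0.09). Whether the roles differed from each other was not tested. S phase and G2/M genes moved in the same samples: 26 of 41 S phase genes and 41 of 54 G2/M genes were lower in shPRMT6, with medians of -0.51 and -0.77. The summed level of the S phase genes was 3360, 3209 and 3173 CPM in NC and 2269, 2344 and 2283 CPM in shPRMT6, and that of the G2/M genes was 6774, 7257 and 6706 CPM in NC and 4487, 4525 and 4579 CPM in shPRMT6. The smallest p-values belonged to MCM7, a subunit of the replicative helicase (log2 fold change -0.79), and WDR76 (-0.75) in the first list, and to the spindle factors NUSAP1 (-1.01) and TPX2 (-0.79) in the second. In the S phase list, POLR1B (0.35) and MRPL36 (0.79) were higher, and without shPRMT6 replicate 1, 2 or 3 the number higher was 0 each time. The part of these cell cycle genes in the changes of the methylation genes was not tested.

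**Figure D1:**
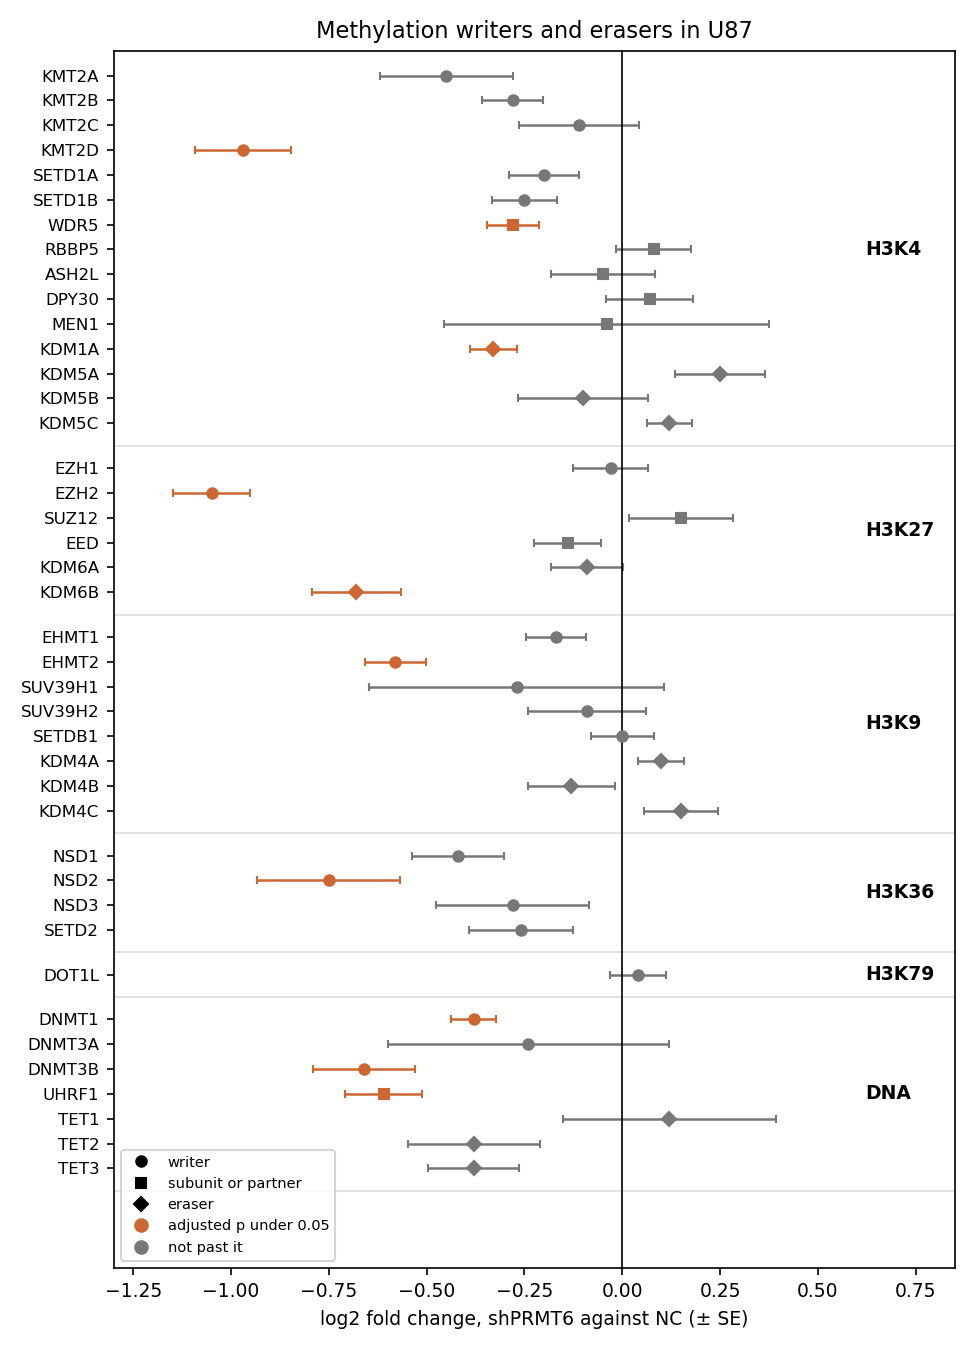
Log2 fold change of each of the 41 genes in shPRMT6 against NC on the horizontal axis (bars: SE derived from the edgeR test), grouped by the mark they were listed under, with circles for writers, squares for subunits or partners and diamonds for erasers. The 10 orange genes passed an adjusted p of 0.05 and all lie left of 0, from EZH2 at -1.05 to WDR5 at -0.28.

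H3K4 methylation is written by 6 related enzymes. KMT2D, which methylates H3K4 at enhancers, changed most among them. KMT2D (ENSG00000167548; GRCh38 chromosome 12, 49018975 to 49059774, minus strand) had 89.4, 121 and 104 CPM in NC replicates 1, 2 and 3 and 50.7, 52.0 and 57.9 CPM in shPRMT6 replicates 1, 2 and 3. The lowest NC library was well above the highest shPRMT6 library, and the spread within NC was wider than within shPRMT6. The mean fell from 105 ± 15.9 to 53.5 ± 3.82 CPM (SD, n = 3 each), 51.0% of the NC level (log2 fold change -0.97, SE 0.122, adjusted p = 0.00365, edgeR). Without NC replicate 2, its highest library, the log2 fold change was -0.86 and still past the threshold. KMT2C, the closest relative of KMT2D and also an enhancer enzyme, had 65.4, 101 and 82.2 CPM in NC and 76.6, 73.2 and 81.3 CPM in shPRMT6. These groups overlapped, and its log2 fold change was -0.11 (adjusted p = 0.688, edgeR).

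The other 4 H3K4 writers had log2 fold changes between -0.45 and -0.20, and none passed the threshold in the edgeR fit of all 6 libraries. KMT2A, the leukaemia-associated MLL enzyme, had 43.9, 57.0 and 46.8 CPM in NC and 38.7, 28.0 and 41.2 CPM in shPRMT6 (adjusted p = 0.118). KMT2B, its relative, had 52.4, 57.2 and 59.8 CPM in NC and 43.9, 47.5 and 47.9 CPM in shPRMT6 (adjusted p = 0.0515). In both of them, and in SETD1B, every shPRMT6 library lay below every NC library, and DESeq2 called all 3 lower. KMT2B also passed without NC replicate 1, where its log2 fold change was -0.34. Of KMT2A, 17.1% of the 75-base stretches of its transcripts also occur in other annotated genes, foremost in AP001267.5, an overlapping annotation. How such reads were assigned is not stated. SETD1A and SETD1B, the enzymes of promoter H3K4 trimethylation, had log2 fold changes of -0.20 and -0.25. FPKM are fragments scaled to a length for each gene and to library size. The summed FPKM of the 6 H3K4 writers was 19.6, 24.5 and 22.8 in NC and 17.4, 17.0 and 18.8 in shPRMT6.

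The KMT2 and SETD1 enzymes share a core of WDR5, RBBP5, ASH2L and DPY30. WDR5 (ENSG00000196363; GRCh38 chromosome 9, 134135365 to 134159968, plus strand) had 71.6, 66.9 and 75.1 CPM in NC and 58.2, 59.6 and 58.6 CPM in shPRMT6. The groups did not overlap and the difference was small, with 82.6% of the NC level left (log2 fold change -0.28, SE 0.0663, adjusted p = 0.0330, edgeR). It was also the least stable of the 10 calls: the log2 fold change stayed between -0.32 and -0.24 in the fits that left out 1 library, but the call was lost without NC replicate 1 (-0.27), NC replicate 3 (-0.24), shPRMT6 replicate 1 (-0.27), shPRMT6 replicate 2 (-0.29) or shPRMT6 replicate 3 (-0.27). On WDR5, 11.2% of the exon bases overlap BX649632.1 on the opposite strand, and the use of strand in counting is not stated. The other 3 core subunits did not pass: RBBP5 had a log2 fold change of 0.08, ASH2L of -0.05 and DPY30 of 0.07. DPY30 shares 48.6% of its 75-base stretches with other annotated genes, foremost with MEMO1. MEN1, the menin partner of KMT2A and KMT2B, was the most variable of the 41 genes, with 22.0, 41.5 and 18.7 CPM in NC and 14, 33.7 and 32.2 CPM in shPRMT6, and its log2 fold change of -0.04 had an SE of 0.416.

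Of the 4 H3K4 erasers, KDM1A was lower and the 3 KDM5 enzymes did not pass. KDM1A (LSD1; ENSG00000004487; GRCh38 chromosome 1, 23019443 to 23083689, plus strand), a flavin-dependent demethylase, had 147, 154 and 141 CPM in NC and 114, 121 and 118 CPM in shPRMT6. All shPRMT6 libraries were below all NC libraries, and 79.8% of the NC level was left (log2 fold change -0.33, SE 0.0600, adjusted p = 0.0134, edgeR). The call was lost without shPRMT6 replicate 1 (-0.30) or shPRMT6 replicate 3 (-0.33). KDM5A and KDM5C, oxygenases that remove H3K4 trimethylation, had the opposite sign. KDM5A had 55, 72.6 and 62.2 CPM in NC and 71.4, 73.2 and 81.4 CPM in shPRMT6, with overlapping groups and a log2 fold change of 0.25 (adjusted p = 0.183, edgeR), the most positive value of the 41. KDM5C had 161, 172 and 172 CPM in NC and 184, 177 and 189 CPM in shPRMT6, without overlap, and a log2 fold change of 0.12 (adjusted p = 0.195, edgeR). Both passed as higher, at 0.22 and 0.18, in a fit corrected for GC content and length of the transcripts, which was added with the data in view. KDM5B had a log2 fold change of -0.10 (adjusted p = 0.721). The summed FPKM of the 4 erasers was 43.4, 47.5 and 45.2 in NC and 42.0, 42.8 and 44.7 in shPRMT6.

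H3K27 methylation is written by PRC2, whose catalytic subunit is either EZH2, typical of dividing cells, or EZH1, which is also made in resting cells. EZH2 showed the deepest fall of the 41 genes. EZH2 (ENSG00000106462; GRCh38 chromosome 7, 148807383 to 148884321, minus strand) had 136, 135 and 120 CPM in NC and 67.9, 55.6 and 65.3 CPM in shPRMT6. Every shPRMT6 library lay far below every NC library. The mean fell from 130 ± 9.23 to 62.9 ± 6.48 CPM (SD, n = 3 each), 48.3% of the NC level (log2 fold change -1.05, SE 0.0976, adjusted p = 0.00153, edgeR). The fall of EZH2 passed in all 16 alternative fits, with log2 fold changes from -1.11 to -0.97 and adjusted p from 1.22e-24 to 0.0333. EZH1 had 21.4, 20.5 and 19.8 CPM in NC and 20.4, 21.6 and 18.4 CPM in shPRMT6, with overlapping groups (log2 fold change -0.03, adjusted p = 0.863, edgeR). The other PRC2 core subunits did not pass either: SUZ12 had a log2 fold change of 0.15 and EED of -0.14.

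The promoter of EZH2 (RefSeq, GRCh38.p14, chr7:148884242-148884541, minus strand, 250 bases before to 50 after the start) is shown because it holds a strict E2F site, the element that binds the E2F factors of the G1/S transition. The capitals mark the site, TTTGGCGC, which begins at position 2 after the start.
EZH2: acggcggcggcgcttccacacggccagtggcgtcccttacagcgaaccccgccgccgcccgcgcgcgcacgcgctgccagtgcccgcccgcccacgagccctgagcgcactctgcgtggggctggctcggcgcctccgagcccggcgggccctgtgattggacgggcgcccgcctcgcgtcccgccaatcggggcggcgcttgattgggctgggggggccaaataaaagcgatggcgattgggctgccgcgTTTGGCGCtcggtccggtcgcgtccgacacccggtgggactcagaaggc
The same window holds 4 CCAAT boxes on either strand. A match is a description of the sequence and not a measured binding site.

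Of the 2 H3K27 erasers, KDM6B was lower and KDM6A did not pass. KDM6B (JMJD3; ENSG00000132510; GRCh38 chromosome 17, 7839904 to 7854796, plus strand), a demethylase known to be induced by stimuli, had 31.8, 38.0 and 36.9 CPM in NC and 24.2, 22.6 and 19.7 CPM in shPRMT6. The groups did not overlap, and 62.3% of the NC level was left (log2 fold change -0.68, SE 0.114, adjusted p = 0.00971, edgeR). KDM6A (UTX), its relative and a partner in KMT2C and KMT2D complexes, had 26.3, 29.7 and 25.9 CPM in NC and 26.8, 24.2 and 26.2 CPM in shPRMT6 (log2 fold change -0.09, adjusted p = 0.581). The summed FPKM of the 2 H3K27 writers was 27.7, 27.6 and 24.9 in NC and 15.2, 13.0 and 14.4 in shPRMT6, and that of the 2 erasers was 4.56, 5.45 and 5.24 in NC and 3.76, 3.48 and 3.23 in shPRMT6. Both sums were lower in every shPRMT6 library than in any NC library.

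**Figure D2:**
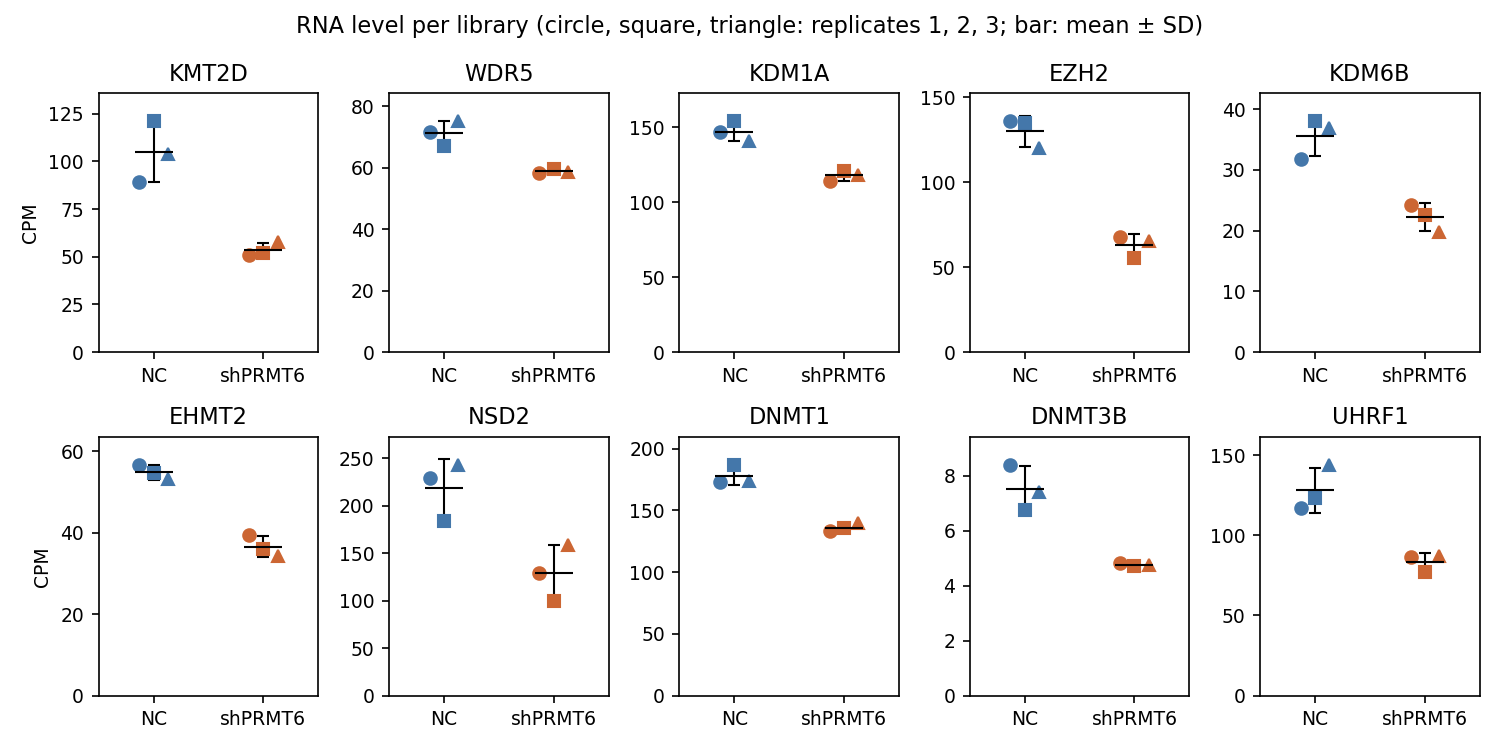
RNA level in CPM (vertical axes, from 0) of the 10 genes that passed an adjusted p of 0.05, in the 3 NC libraries (blue) and the 3 shPRMT6 libraries (orange), with circle, square and triangle for replicates 1, 2 and 3 and bars for the mean ± SD. In each panel every orange point lies below every blue point, and NSD2 shows the narrowest gap relative to its spread, with 184 CPM in the lowest NC library and 159 CPM in the highest shPRMT6 library.

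Of the 8 H3K9 genes, 1 was lower, beside 9.06% of all genes tested. EHMT2 (G9a; ENSG00000204371; GRCh38 chromosome 6, 31879759 to 31897687, minus strand) writes H3K9 dimethylation. It had 56.7, 54.6 and 53.1 CPM in NC and 39.4, 35.9 and 34.4 CPM in shPRMT6. The libraries of each group lay close together and the groups far apart, and 66.8% of the NC level was left (log2 fold change -0.58, SE 0.0779, adjusted p = 0.00465, edgeR). It passed in all 16 alternative fits. EHMT1 (GLP), the partner with which EHMT2 forms a heterodimer, had 35.2, 36.9 and 37.6 CPM in NC and 31.3, 34.5 and 31.5 CPM in shPRMT6. These groups did not overlap either, but its log2 fold change of -0.17 did not pass (adjusted p = 0.175, edgeR).

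The writers of H3K9 trimethylation did not pass. SETDB1, which silences retroelements, had a log2 fold change of -0.00 and nearly equal means of 27 ± 1.39 CPM in NC and 27 ± 1.08 CPM in shPRMT6. SUV39H2 had a log2 fold change of -0.09. SUV39H1, a writer at heterochromatin, varied widely, with 9.94, 18.8 and 12.7 CPM in NC and 18, 8.71 and 7.81 CPM in shPRMT6, so that its log2 fold change of -0.27 had an SE of 0.377. Among the KDM4 erasers, KDM4A had 60.7, 63.8 and 62.8 CPM in NC and 68.5, 65.1 and 67.2 CPM in shPRMT6, without overlap but short of the threshold (log2 fold change 0.10, adjusted p = 0.291). Of its 75-base stretches, 44.9% are shared with other annotated genes, foremost with AL451062.3. KDM4B had a log2 fold change of -0.13 and KDM4C of 0.15.

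All 4 H3K36 writers had a negative log2 fold change, from -0.75 to -0.26, and NSD2 passed. NSD2 (ENSG00000109685; GRCh38 chromosome 4, 1871424 to 1982207, plus strand), the dimethyltransferase activated by translocation in multiple myeloma, had 229, 184 and 243 CPM in NC and 129, 100 and 159 CPM in shPRMT6. The groups did not overlap, but replicates of both groups spread widely, and 59.3% of the NC level was left (log2 fold change -0.75, SE 0.183, adjusted p = 0.0338, edgeR). The call was lost without NC replicate 1 (-0.72), NC replicate 3 (-0.67), shPRMT6 replicate 1 (-0.75) or shPRMT6 replicate 2 (-0.60). NSD1 had 37.1, 49.9 and 43.5 CPM in NC and 32.8, 31.4 and 33.6 CPM in shPRMT6, without overlap, and lay just outside the threshold (log2 fold change -0.42, adjusted p = 0.0526, edgeR). It passed in 5 of the 16 alternative fits, among them DESeq2 and the fit without NC replicate 1 (-0.52). NSD3 (-0.28) and SETD2 (-0.26), the writer of H3K36 trimethylation, had overlapping groups. The summed FPKM of the 4 writers was 19.7, 22.6 and 23.5 in NC and 16.5, 15.1 and 16.2 in shPRMT6. DOT1L, the H3K79 methyltransferase, had a log2 fold change of 0.04, with 58.6 to 65.8 CPM in NC and 61.8 to 67.0 CPM in shPRMT6.

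Of the 7 DNA methylation genes, 3 were lower, beside 9.06% of all genes tested. They were the pair that copies methylation after replication and 1 of the de novo enzymes. DNMT1 (ENSG00000130816; GRCh38 chromosome 19, 10133345 to 10231286, minus strand), the maintenance methyltransferase, had 173, 187 and 174 CPM in NC and 133, 136 and 140 CPM in shPRMT6. Both groups were tight and did not overlap, and 76.6% of the NC level was left (log2 fold change -0.38, SE 0.0575, adjusted p = 0.00655, edgeR). The call passed in all 16 alternative fits. UHRF1 (ENSG00000276043; GRCh38 chromosome 19, 4903080 to 4962154, plus strand), which recognises hemimethylated DNA and brings DNMT1 to it, had 117, 123 and 144 CPM in NC and 86.7, 76.8 and 87 CPM in shPRMT6. Again the groups did not overlap, with 65.5% of the NC level left (log2 fold change -0.61, SE 0.0983, adjusted p = 0.00839, edgeR). Of UHRF1, 18.7% of the 75-base stretches are shared with other annotated genes, foremost with AC112777.1.

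The promoter of DNMT1 (RefSeq, GRCh38.p14, chr19:10194904-10195203, minus strand, 250 bases before to 50 after the start) is shown beside that of EZH2 because it is the only other of the 36 promoters matched with a strict E2F site. The capitals mark GCGCGAAA, which begins at position -2 relative to the start and reads TTTCGCGC on the opposite strand.
DNMT1: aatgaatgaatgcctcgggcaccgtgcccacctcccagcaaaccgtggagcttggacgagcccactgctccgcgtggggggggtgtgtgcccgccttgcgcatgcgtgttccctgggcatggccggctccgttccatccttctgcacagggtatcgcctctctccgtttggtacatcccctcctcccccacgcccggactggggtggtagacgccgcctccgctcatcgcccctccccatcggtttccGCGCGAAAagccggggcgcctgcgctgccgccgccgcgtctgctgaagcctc
Promoters were matched for 36 of the 41 genes, among them all 10 that were lower. Where several promoters were listed for a gene, only the first was used, and it need not lie at the annotated gene start. The DNMT3B window begins at 32779602, inside the gene that begins at 32762385. The windows of UHRF1 (from 4909251, gene from 4903080) and DNMT1 also lie inside their genes. The KDM6B window ends at 7834266, before its gene begins at 7839904. Searched on both strands, TTTGGCGC or TTTCGCGC was in 1.18% of 27305 promoters and in 2 of the 36, EZH2 and DNMT1. The shorter letters GGCGGG, which are common in GC-rich promoters, were in 28 of the 36 and in 9 of the 10 lower genes, beside 44.7% of all promoters. The cell cycle homology region, TTTGAA, was in 5 of the 36 and in 2 of the 10, beside 15.4% of all, and CCAAT was in 11 of the 36 and in 5 of the 10, beside 35.7% of all. The promoters of the 36 genes had a median GC content of 66.7% and a median of 28.5 CpG, against 58.3% and 14 over all promoters.

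The de novo methyltransferases were present at low levels. DNMT3B (ENSG00000088305; GRCh38 chromosome 20, 32762385 to 32809356, plus strand) had 8.40, 6.77 and 7.40 CPM in NC and 4.81, 4.70 and 4.77 CPM in shPRMT6. The shPRMT6 libraries were nearly alike, and 63.2% of the NC level was left (log2 fold change -0.66, SE 0.13, adjusted p = 0.0168, edgeR). The call was lost without NC replicate 3 (-0.67), shPRMT6 replicate 1 (-0.67), shPRMT6 replicate 2 (-0.65) or shPRMT6 replicate 3 (-0.66), and with the replicate block (-0.66). DNMT3A had 9.21, 4.92 and 5.88 CPM in NC and 4.46, 4.01 and 8.47 CPM in shPRMT6, a spread that left its log2 fold change of -0.24 with an SE of 0.360. None of the TET enzymes, which oxidise 5-methylcytosine, passed. TET2 (24.9, 35.4 and 27.1 CPM in NC and 23.7, 24.8 and 18.8 CPM in shPRMT6) and TET3 (20.9, 27.2 and 24.7 CPM in NC and 18.8, 17.9 and 19.3 CPM in shPRMT6) had groups that did not overlap, each with a log2 fold change of -0.38 and adjusted p of 0.175 and 0.0684. TET3 passed in 3 of the 16 alternative fits: DESeq2, the fit without NC replicate 1 (-0.48) and the fit with GC content and length trends removed. TET1 was under 1 CPM in every library, with 33 to 60 counts, and its log2 fold change was 0.12 (SE 0.272).

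Ratios between relatives within a library do not depend on how libraries were scaled, and 10 pairs were compared by an exact two-sided permutation test of FPKM ratios, which cannot go below p = 0.1 with 3 libraries against 3. The size of a ratio depends on the length used for each gene, which is not stated, while its change between groups does not. The ratio of EZH2 to EZH1 was 9.88, 10.2 and 9.34 in NC and 5.15, 3.99 and 5.51 in shPRMT6. EZH2 thus had the higher FPKM of the pair in every library. KMT2C had the lower FPKM of its pair in all NC libraries, with a ratio to KMT2D of 0.782, 0.893 and 0.841. It had the higher FPKM in all shPRMT6 libraries, at 1.61, 1.51 and 1.50. The ratio of KDM6A to KDM6B was 0.250, 0.237 and 0.212 in NC and 0.336, 0.324 and 0.403 in shPRMT6. EHMT1 to EHMT2 went from 0.203, 0.222 and 0.232 to 0.260, 0.315 and 0.30. KDM5B to KDM5A had ratios of 0.453, 0.413 and 0.449 in NC and 0.285, 0.342 and 0.390 in shPRMT6. In these 5 pairs the groups did not overlap, which is the same as the smallest p the test allows (exact permutation p = 0.1, adjusted p = 0.2 over the 10 pairs). Over all genes tested, single genes did not overlap in 19.9% (lower) and 20.3% (higher). The share over other pairs of genes was not computed, so the count of pairs is a description only. In the other 5 pairs, KMT2A to KMT2B, SETD1A to SETD1B, SUV39H1 to SUV39H2, DNMT3A to DNMT3B and TET2 to TET3, the groups overlapped. The mean difference of the log2 ratio was -1.02 for EZH2 to EZH1, 0.88 for KMT2C to KMT2D and -0.00 for TET2 to TET3.

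**Figure D3:**
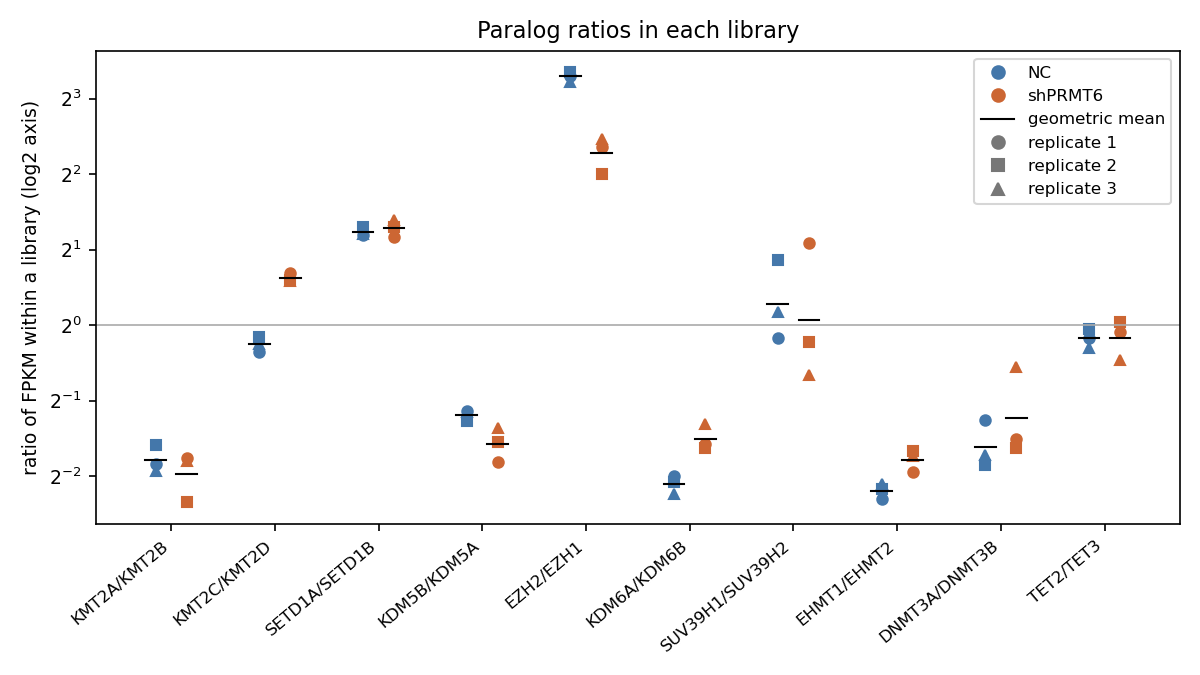
Ratio of the FPKM values of 10 pairs of related genes in each library on a log2 axis, with NC in blue, shPRMT6 in orange, a marker shape for each replicate and a line at the geometric mean. EZH2/EZH1 falls from a mean of 9.81 to 4.84 and KMT2C/KMT2D crosses from 0.838 to 1.54, while TET2/TET3 stays at 0.889 and 0.888.

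By the deposited FPKM, the highest of the 41 genes in NC were EZH2 (mean 24.2), KDM1A (22.8) and UHRF1 (20.9), whose libraries overlapped. They were followed by WDR5 (16.5), KDM5C (16.2) and DNMT1 (15.3). Of these 6, the 5 other than KDM5C were lower in shPRMT6. In shPRMT6 the most abundant were KDM1A (18.3), with 17.7 to 18.8 in its libraries, and KDM5C (17.8), with 17.1 to 18.3, which overlapped each other, while EZH2 had 10.4 to 12.7. The lowest FPKM in NC were those of KDM6A (0.957), DNMT3A (0.461) and TET1 (0.0639). Such ranks between genes depend on the length used for each gene, which is not stated. KDM6A and KDM6B had 27.3 and 35.6 CPM in NC, and their longest transcripts have 5924 and 6713 bases. Their mean FPKM in NC were nevertheless 0.957 and 4.13, so the length used was not that of the longest transcript.

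**Figure D4:**
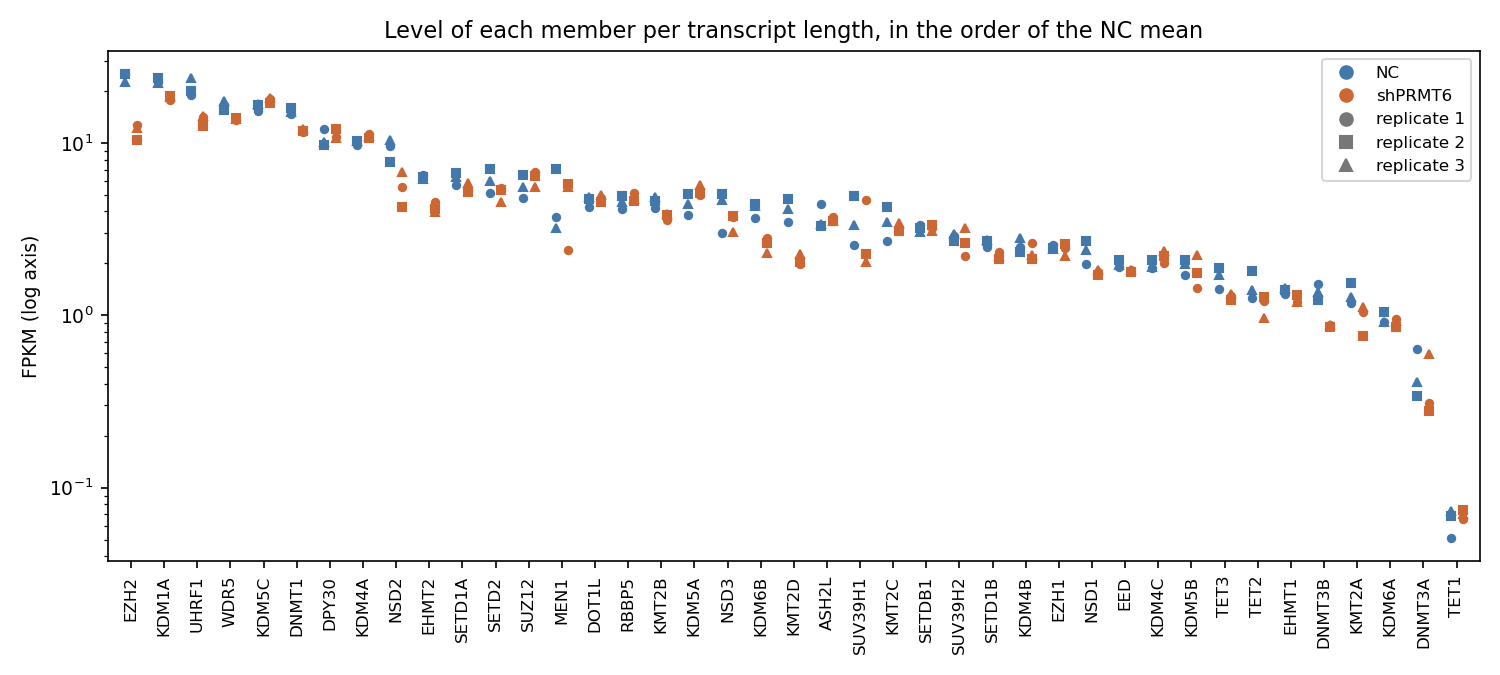
FPKM of each of the 41 genes in every library on a log axis, in the order of the NC mean, with NC in blue, shPRMT6 in orange and a marker shape for each replicate. EZH2 leads in NC at a mean of 24.2 but is at 11.8 in shPRMT6, and TET1, at 0.0639, lies far under all others.

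Long transcripts had a pattern of their own among the NC libraries. NC replicate 2 was the highest NC library for 11 of the 15 methylation genes whose longest transcript is at least 8 kb (73.3%) and for 12 of the 26 others (46.2%). Over all genes tested it was the highest for 63.9% of those of at least 8 kb and for 34.3% of the rest. The length of 8 kb was chosen after seeing the data. Without NC replicate 2 the log2 fold change of KMT2A moved from -0.45 to -0.34, that of NSD1 from -0.42 to -0.31, that of TET2 from -0.38 to -0.21 and that of KMT2C from -0.11 to 0.06. None of these 4 passed in the reported edgeR fit or in the same fit without NC replicate 2. The 10 genes called with all libraries were the same 10 without it.

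Beyond the 41, 97 further genes from lists on the same marks were tested, with a median log2 fold change of -0.09. Of these, 6 were higher and 20 lower, beside 9.51% and 9.06% of all genes tested. The demethylase PHF2, which was lower, is in both the H3K4 and the H3K9 list and was counted once in these 20. Among 20 other H3K4 genes, 7 were lower and 4 higher. WDR82, the SETD1 complex subunit (log2 fold change -0.52, adjusted p = 0.00268), and PAGR1, a subunit of the KMT2C and KMT2D complexes (-0.62, adjusted p = 0.00350), were lower, while the methyltransferase SMYD3 (0.72, adjusted p = 0.00959) and the H3K4 demethylase KDM1B (0.54, adjusted p = 0.00980) were higher in edgeR. KDM1B thus moved opposite to KDM1A, at 24.0 ± 2.09 CPM in NC and 35.0 ± 1.17 CPM in shPRMT6 (SD, n = 3 each). The number lower among the H3K4 genes was 4 without NC replicate 3 or shPRMT6 replicate 2, and the number higher was 2 without shPRMT6 replicate 1, 2 or 3.

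Among 31 other Polycomb and H3K27 genes, 5 were lower and 1 was higher, beside 9.06% and 9.51% of all genes tested. PHF19, a PRC2 accessory subunit, fell from 64.1 ± 2.43 to 33.9 ± 1.15 CPM (log2 fold change -0.92, adjusted p = 0.000789, edgeR), close in size to EZH2, and PHC1 of PRC1 was also lower (-0.70, adjusted p = 0.00725). YAF2, a PRC1 partner, was higher (0.36, adjusted p = 0.0292), a call lost in each of the 6 fits that left out 1 library. The number lower was 3 without NC replicate 3 or without shPRMT6 replicate 1, 2 or 3. Among 15 other H3K9 genes, 3 were lower and 0 higher, including CBX1, the HP1 beta reader of H3K9 methylation (-0.51, adjusted p = 0.00240), and its corepressor TRIM28 (-0.57, adjusted p = 0.00364). Among 15 other H3K36 and H4K20 genes, 0 passed in either direction in edgeR and 3 were lower in DESeq2.

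Among 17 other DNA methylation genes tested, 6 were lower and 1 was higher, beside 9.06% and 9.51% of all genes tested. CDCA7, a partner of the remodeller HELLS (log2 fold change -0.67, adjusted p = 0.00213), and its relative CDCA7L (-0.42, adjusted p = 0.00873) were lower, and IDH1, which makes the 2-oxoglutarate that TET and JmjC erasers use, was higher (0.59, adjusted p = 0.00274, edgeR). IDH2, in the same list and also a source of 2-oxoglutarate, was lower (-0.36, adjusted p = 0.0182, edgeR). CDCA7 is also in the S phase list. The number lower was 3 without shPRMT6 replicate 1. Of 16 genes of the folate and methionine cycles, which supply the methyl donor S-adenosylmethionine, 6 were lower and 1 was higher. SHMT2, the mitochondrial serine hydroxymethyltransferase, fell from 210 ± 15.2 to 112 ± 8.66 CPM (log2 fold change -0.90, adjusted p = 0.00153, edgeR). The number lower among these genes was 3 without shPRMT6 replicate 2, and the number higher was 0 without NC replicate 3 or shPRMT6 replicate 1, 2 or 3 and 2 without NC replicate 2. Of 9 other arginine methylation genes tested, PRMT1, the main asymmetric arginine methyltransferase (-0.48, adjusted p = 0.00961), and PRMT3 (-0.49, adjusted p = 0.0269) were lower and 0 were higher, with 1 lower without NC replicate 1, NC replicate 3, shPRMT6 replicate 1 or shPRMT6 replicate 2.

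How firmly each of the 10 calls held differed between the genes. EZH2, EHMT2 and DNMT1 passed in all 16 alternative fits, and KMT2D, KDM6B and UHRF1 in 15. KDM1A passed in 13, NSD2 in 11, DNMT3B in 10 and WDR5 in 8, the losses coming mostly from fits that left out 1 library. KMT2D, EZH2, KDM6B, EHMT2, DNMT1 and UHRF1, 6 genes in all, passed in each of the 6 fits that left out 1 library. The number of the 41 called lower was 6 without shPRMT6 replicate 1.

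**Figure D5:**
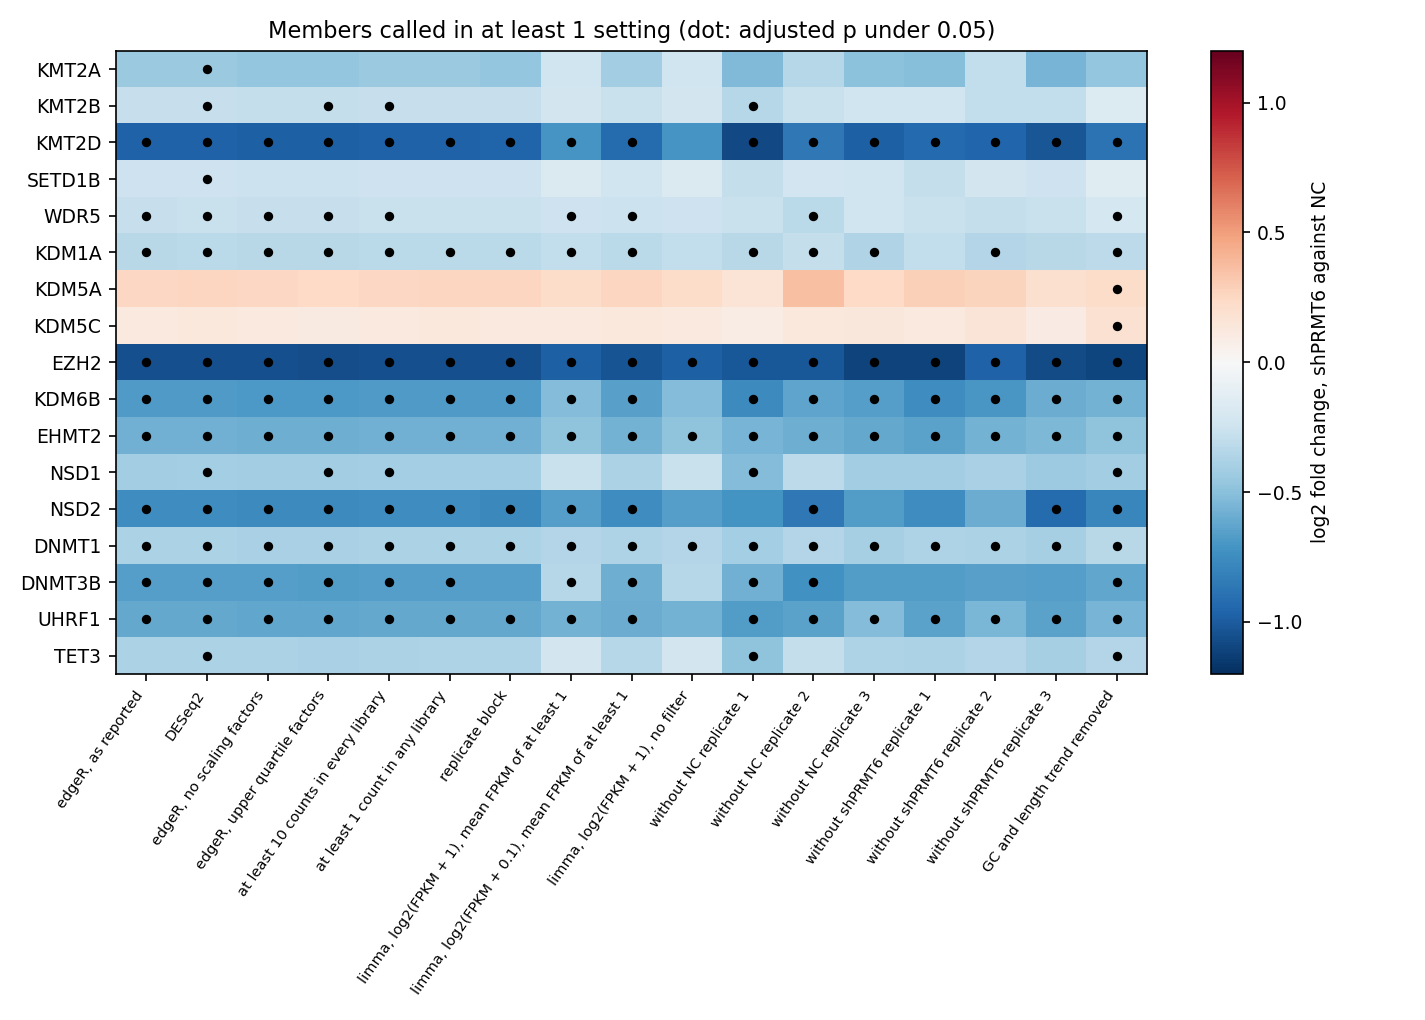
Log2 fold change (colour, blue for lower in shPRMT6) of each methylation gene that passed in at least 1 fit, with the fits in columns and a dot where the adjusted p was under 0.05. EZH2, EHMT2 and DNMT1 carry a dot in every column, WDR5 loses it in 5 of the 6 columns that leave out a library, and KDM5A and KDM5C gain one only once trends on GC content and length are removed.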

How the data were processed

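Total RNA of U87 cells was made into libraries with a NEBNext Ultra RNA kit. According to the submitters' processing notes, reads were aligned with HISAT2 and counted with HTSeq 0.13.5 on GRCh38. The strand setting is not stated. The authors deposited raw counts per gene, not normalized, and FPKM values, which list a gene without counts at 0.0001. Symbols were matched for 60401 of the 60612 identifiers, and coordinates and exons came from GENCODE 29. Counts were tested in edgeR 4.0.16 under R 4.3.3 (quasi-likelihood, TMM factors from 0.992 to 1.010, filterByExpr, Benjamini-Hochberg adjustment) with the condition as the only term, and an adjusted p under 0.05 was called. The filter left 18106 genes. Errors are SD over 3 libraries, and CPM are TMM-scaled. The SE of an edgeR log2 fold change was derived as its absolute value divided by the square root of the F statistic. Replicates differed by more than counting error (chi-square over its degrees of freedom between 53 and 86.3). The 41 members and all lists were chosen with earlier results of these data known. Members past the threshold and their catalytic paralogs are named, plus PRMT6 and, of each further list, at most the 2 smallest p in each direction. Genes outside this rule (the remaining members, the markers and IDH2) are given by values only. The values of some genes under this rule are not reported here.

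Alternatives were DESeq2 1.42.0, limma 3.58.1 on log2(FPKM + 1) or log2(FPKM + 0.1) over genes whose mean FPKM reached 1, or over all genes, other scaling factors and count filters, a replicate block, stricter thresholds, each library left out, and a fit with GC content and length trends removed, which was chosen with the data in view. The edgeR fit with and without the replicate block, DESeq2 and limma on log2(FPKM + 1) with the FPKM filter were tested on simulated data. The other settings, the permutation test and the promoter search were not. In the simulation every gene had the same dispersion and there were no replicate effects. Error rates in the real libraries therefore cannot be read from it. Ratios and permutation tests used Python 3.11.15 with SciPy 1.17.1. Promoters came from RefSeq (GRCh38.p14), with the first listed window of each gene.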

Additional observations from a re-analysis of the deposited data

How the results depend on the processing

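The number of methylation genes lower in shPRMT6 was 10 in the reported fit, 15 in DESeq2, 10 without scaling factors, 12 with upper quartile factors, 12 with at least 10 counts in every library, 9 with at least 1 count in any library, and 10 in limma with either pseudocount and a mean FPKM of at least 1, where 38 of the 41 were tested. It was 3 in limma without the FPKM filter, where all 60612 genes entered the adjustment, 6 at an adjusted p under 0.01 and 1 under the methods' threshold. Leaving out 1 library gave 6 to 11, the lowest without shPRMT6 replicate 1. The share of all genes called lower moved too: 9.06% as reported, 15.7% in DESeq2, 9.14% and 9.26% with the other scaling factors, 11.0% and 4.20% with the other count filters, 13.7% and 13.6% in limma with the FPKM filter and 0.807% without it, 3.57% at an adjusted p under 0.01, 5.01% with the replicate block, 9.89% with the trends removed, and 4.52% to 8.10% without 1 library (4.89% without shPRMT6 replicate 1). The number higher was 0 in all of these and 2 with the GC and length trends removed, where 12 were lower. Under these alternatives the median log2 fold change of all genes stayed between -0.021 and 0.004.

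The replicate block gave 8 lower, with WDR5 and DNMT3B lost. Replicate numbers did not pair the samples: the correlation of deviations between libraries of the same number was -0.01, -0.07 and -0.02 over 13771 genes, and between others it lay between -0.05 and 0.07. The block changed no other call of the 41, but PRMT6 was lost (log2 fold change -0.88), as it was in limma without the FPKM filter (-0.47), and its values without 1 library ran from -1.0 to -0.73. On the log2(FPKM + 1) scale the fold change of low genes is understated. The block gave 2 lower Polycomb genes in place of 5, 3 lower methyl donor genes in place of 6, and 1 lower arginine methylation gene in place of 2.

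Of 650 values of single genes under an alternative, 587 kept their sign and their side of the threshold, 25 lost the call, 16 gained it and 22 changed sign. All 22 belong to genes not called in the reported fit: KMT2C (0.06), MEN1 (0.39) and SUV39H1 (0.02) without NC replicate 2, ASH2L (0.10), DOT1L (-0.01), DNMT3A (0.06) and TET1 (-0.02) without NC replicate 1, MEN1 (0.26), KDM5B (0.04) and SUV39H2 (0.04) without shPRMT6 replicate 1, EZH1 (0.03) without shPRMT6 replicate 3, MEN1 (0.04) with the GC and length trends removed, and SETDB1, at -0.00 in the reported fit and between 0.00 and 0.03 in 10 alternatives (0.01 in limma with a pseudocount of 0.1 and with the trends removed). Over the fits that left out 1 library these genes ranged from -0.25 to 0.06 (KMT2C), -0.13 to 0.10 (ASH2L), -0.25 to 0.39 (MEN1), -0.28 to 0.04 (KDM5B), -0.08 to 0.03 (EZH1), -0.74 to 0.02 (SUV39H1), -0.23 to 0.04 (SUV39H2), -0.04 to 0.03 (SETDB1), -0.01 to 0.07 (DOT1L), -0.65 to 0.06 (DNMT3A) and -0.02 to 0.22 (TET1). The cause was not tested. CPM in place of FPKM could not change the difference of a log2 ratio between groups, since gene length and library size cancel in it. Precision is limited by 3 libraries a group and, for TET1, by low counts. DNMT3A (SE 0.36) had 247 to 574 counts and DNMT3B (SE 0.13) had 289 to 515. What limits the precision of these 2 genes was not tested.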
